A study of Homo sapiens with 20 samples.

Results

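Aminoacyl-tRNA synthetases are the enzymes that load each amino acid onto its tRNA, and their genes were followed in U937T myeloid cells after EVI1, a transcription factor encoded at the MECOM locus and overexpressed in some myeloid leukemias, had been switched on. The 35 genes considered were chosen by name as members of the family: 19 for cytosolic enzymes and 16, with symbols ending in 2, for mitochondrial ones. A gene was measured where the annotation of the Affymetrix HG-U133 Plus 2.0 array held a probe set with that gene as its only symbol, and the probe set with the highest mean over the 20 arrays was used. This gave values for 32 of the 35 genes, 17 cytosolic and 15 mitochondrial, among 17860 genes tested, and all 32 passed the filter on low intensities. MARS1, QARS1 and TARS2 have no value, since every probe set that names them, 3 for MARS1 and 1 each for QARS1 and TARS2, also carries a further symbol. KARS1 and GARS1 each encode both the cytosolic and the mitochondrial enzyme and were counted as cytosolic by their symbols.

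The induced cells were E10 and E14, clones of U937T_EVI1-HA in which a promoter shut off by tetracycline (tet) drives HA-tagged human EVI1, harvested 6, 12, 24 and 48 h after transfer to medium without tet or to fresh medium with tet. The control lines were U937T_vec clone P2, which carries the empty vector, and parental U937T, both harvested after 48 h without or with tet. All cultures grew with puromycin, and E10, E14 and P2 also with hygromycin. E10, E14 and P2 are each a single clone, and there was 1 array for each line, time and culture condition, so the 2 EVI1 clones served as replicates of each other, as did the 2 control lines. Values are log2 intensities, a difference of 1 on this scale is a 2-fold change, and the number of arrays limits the precision. MECOM read 8.52, 9.52, 9.64 and 10.51 in E10 and 8.63, 9.92, 9.60 and 9.98 in E14 without tet at 6, 12, 24 and 48 h, against 7.06 to 7.34 on the 8 arrays of these clones with tet, while P2 and U937T read 5.91 and 6.53 without tet, against 6.90 and 6.48 with tet.

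Of the cytosolic enzymes considered here, 7 (those for glutamate and proline, isoleucine, leucine, glutamine, methionine, lysine and arginine) sit in the multi-tRNA synthetase complex. Mitochondria translate their own small set of mRNAs with a separate set of synthetases that are encoded in the nucleus and imported. When charging fails, uncharged tRNAs activate the kinase GCN2, translation of the transcription factor ATF4 rises, and ATF4 in turn binds C/EBP-ATF response elements upstream of many cytosolic synthetase genes. WARS1, the tryptophan enzyme, is also a textbook target of interferon-gamma.

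The promoters are shown because they hold response elements known from cytosolic genes of the family. RefSeq promoters of GRCh38.p14, taken as 250 bases before to 50 bases after each annotated start, were matched by symbol for 30 of the 35 genes, 16 cytosolic and 14 mitochondrial, and LARS1, VARS1, YARS1, AARS2 and VARS2 were not matched. The letters TGATGNAA, searched on both strands as a C/EBP-ATF response element, were found at a start of 7 of 16 cytosolic genes (43.8%) and 1 of 14 mitochondrial genes (7.14%), against 4.46% of all 27305 genes. The matches are given below with 30 flanking bases where the window allowed, on the strand of the gene and 5′ to 3′, with the matching letters in capitals; TTGCATCA and TTTCATCA are matches on the opposite strand.
IARS1 (chr9:92293673-92293740, minus strand): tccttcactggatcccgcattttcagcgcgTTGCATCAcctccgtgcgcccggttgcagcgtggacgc
GARS1 (chr7:30594815-30594882, plus strand): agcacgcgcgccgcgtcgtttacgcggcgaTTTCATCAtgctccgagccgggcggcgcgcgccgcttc
CARS1 (chr11:3057394-3057455, minus strand): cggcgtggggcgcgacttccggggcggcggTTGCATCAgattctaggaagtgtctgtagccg
AARS1 (chr16:70289656-70289723, minus strand): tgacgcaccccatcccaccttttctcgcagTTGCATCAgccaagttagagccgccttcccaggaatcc
TARS1 (chr5:33440937-33440994, plus strand): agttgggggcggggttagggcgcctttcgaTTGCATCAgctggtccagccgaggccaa
NARS1 (chr18:57621807-57621852, minus strand): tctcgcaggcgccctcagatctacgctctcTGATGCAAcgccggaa
MARS1 (chr12:57488034-57488097, plus strand): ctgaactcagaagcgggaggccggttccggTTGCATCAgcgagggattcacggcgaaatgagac
YARS2 (chr12:32756057-32756124, minus strand): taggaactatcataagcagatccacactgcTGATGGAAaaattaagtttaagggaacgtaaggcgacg
A match is a description of letters and not of a bound site. Counting the start as 1 and the base before it as -1, the match began between -33 and 15 in IARS1, GARS1, CARS1, TARS1, NARS1 and MARS1, at -187 in AARS1 and at -197 in YARS2.

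The letters CACGTG, the E-box that MYC and MAX bind, were found at 1 of 16 cytosolic genes (6.25%, IARS1) and at 3 of 14 mitochondrial genes (21.4%, CARS2, EARS2 and MARS2), against 8.77% of all genes. CARS2, with a match, fell by 0.64 on the log2 scale in the EVI1 clones at 48 h. NARS2, which had one of the largest changes of the mitochondrial group, held no match. The letters are shown in capitals for EARS2 and MARS2, chosen because they too had some of the largest changes of that group.
EARS2 (chr16:23557330-23557395, minus strand): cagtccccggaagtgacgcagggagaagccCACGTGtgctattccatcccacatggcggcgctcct
MARS2 (chr2:197705328-197705393, plus strand): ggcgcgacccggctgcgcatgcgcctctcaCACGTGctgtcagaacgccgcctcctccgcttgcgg
The letters TTCNNNGAA of a STAT site occurred at 3 of 16 cytosolic and 2 of 14 mitochondrial genes (18.8% and 14.3%, against 9.38% of all genes), and GAAANNGAA, the core of the interferon-stimulated response element (ISRE), at 3 of 16 and 1 of 14 (18.8% and 7.14%, against 9.86%). WARS1 held both upstream of its second annotated start, as the next sequences show in capitals.
WARS1 (chr14:100375451-100375519, minus strand), STAT site: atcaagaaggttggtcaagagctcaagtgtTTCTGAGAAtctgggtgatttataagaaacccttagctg
WARS1 (chr14:100375364-100375432, minus strand), ISRE core: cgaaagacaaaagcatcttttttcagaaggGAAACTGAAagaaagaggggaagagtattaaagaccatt

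At 48 h all 17 measured cytosolic synthetases were lower without tet than with tet in the EVI1 clones, and each passed the test (limma, Benjamini-Hochberg adjusted p under 0.05 over 17860 genes). Of all genes tested, 14.7% were called lower in this comparison. Of the 15 mitochondrial synthetases 11 were called lower, and none of the 32 genes was called higher. The median log2 change was -0.79 for the cytosolic and -0.57 for the mitochondrial genes, beside -0.04 over all genes. The clones gave nearly the same values, with cytosolic medians of -0.81 in E10 and -0.79 in E14 and mitochondrial medians of -0.50 and -0.56. Across the 32 genes the changes in E10 and E14 had a Pearson correlation of 0.936, a description only, since the genes share their arrays. Array values are relative to all RNA on an array, so fewer transcripts per cell and a changed total of RNA per cell cannot be told apart. With E10 or E14 left out and 1 residual degree of freedom remaining, fewer synthetases and fewer of all genes were called lower.

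**Figure D1:**
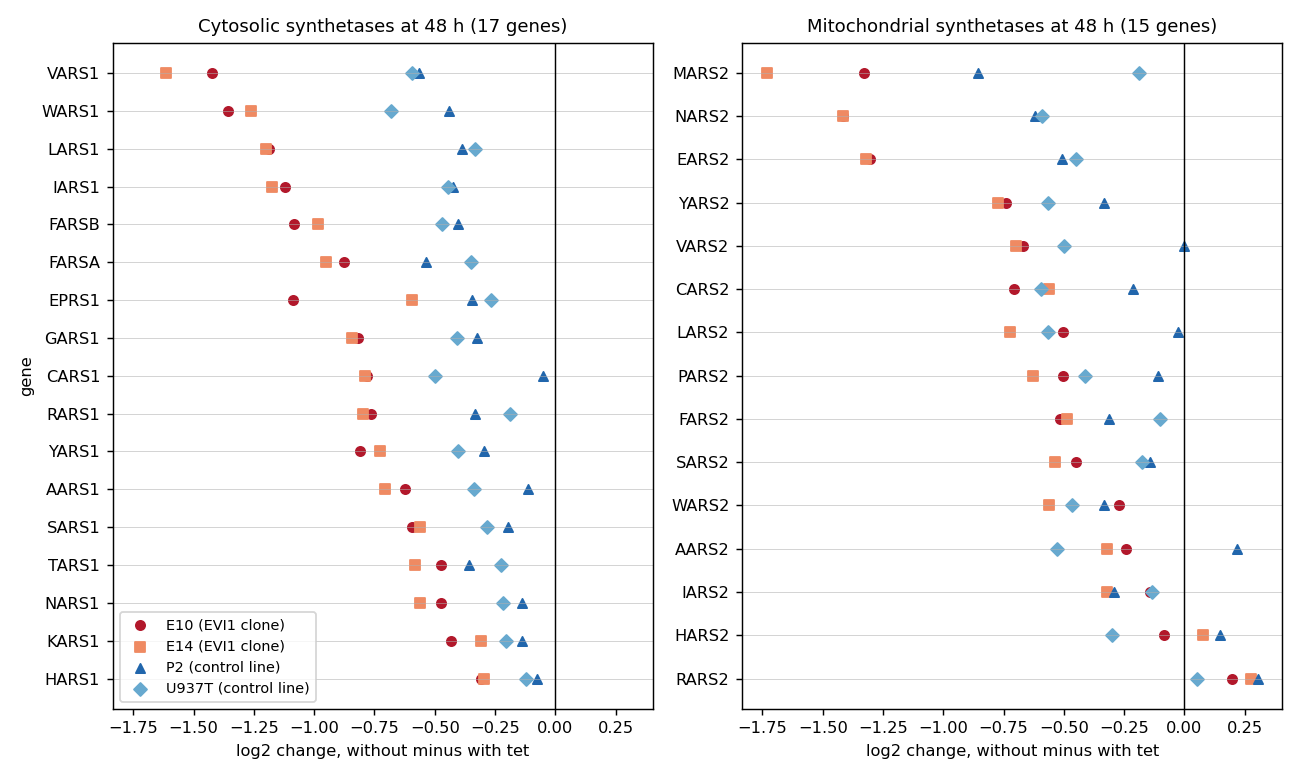
Log2 change at 48 h, without minus with tet, of the 17 cytosolic (left) and 15 mitochondrial (right) synthetase genes in each of the 4 lines, ordered by the mean of E10 and E14. In all 17 cytosolic genes the points of both EVI1 clones (E10, E14) lie left of those of both control lines (P2, U937T), as they do in 8 of the 15 mitochondrial genes; the E10 point of NARS2 is hidden behind that of E14.

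The valine enzyme VARS1 had the largest cytosolic change. Its log2 intensity at 48 h was 9.03 in E10 and 9.01 in E14 without tet, against 10.46 and 10.62 with tet, and 9.82 in P2 and 9.83 in U937T without tet, against 10.39 and 10.42 with tet. The 4 arrays without tet all lay below the 4 with tet, and those of the EVI1 clones lay lowest. VARS1 fell by 1.52 on the log2 scale in the EVI1 clones (SE 0.10, 2.87-fold, n = 2 lines, adjusted p = 4.65e-08).

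WARS1 read 9.21 in E10 and 9.31 in E14 without tet, against 10.57 and 10.57 with tet, and 9.74 and 9.75 in P2 and U937T without tet, against 10.18 and 10.43 with tet. It fell by 1.31 on the log2 scale in the EVI1 clones (SE 0.13, 2.48-fold, adjusted p = 2.7e-06), and again the groups did not overlap. No other interferon-gamma-induced gene of those listed was called lower. Of 8 measured, 3 were called higher in the EVI1 clones at 48 h: PSMB9, an immunoproteasome subunit, rose by 1.27, IRF1, a transcription factor, rose by 1.24, and TAP1, a peptide transporter subunit, rose by 0.50. Of all genes 16% were called higher in this comparison. IRF1 and PSMB9 also rose in the control lines, by 0.79 and 0.67 (5.41% of all genes called higher), and of the 3 only PSMB9 had a called EVI1-specific change (0.60, adjusted p = 0.0376, with 2.43% of all genes called higher). The list was chosen with earlier results of these data known.

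The leucine and isoleucine enzymes are both in the multi-tRNA synthetase complex. LARS1 read 10.40 in E10 and 10.34 in E14 without tet, against 11.59 and 11.54 with tet, and 10.99 and 11.09 in P2 and U937T without tet, against 11.38 and 11.42 with tet. IARS1 read 10.56 and 10.57 in the clones without tet, against 11.68 and 11.74 with tet, and 11.14 and 11.23 in the control lines without tet, against 11.56 and 11.68 with tet. In both genes the clones without tet lay below every other array taken at 48 h. LARS1 fell by 1.19 (SE 0.10, adjusted p = 6.21e-07) and IARS1 by 1.15 (SE 0.10, adjusted p = 7.48e-07) on the log2 scale. Of the complex's other members, RARS1 (arginine) fell by 0.78, EPRS1 (glutamate and proline) fell by 0.84 and KARS1 (lysine) fell by 0.37. Thus 5 of 5 measured members were called lower, as were all 17 measured cytosolic synthetases and 14.7% of all genes. In the EVI1-specific response 2 of the 5 were called lower, beside 3.03% of all genes. EPRS1 changed by -1.09 in E10 and -0.60 in E14, while another probe set of nearly the same mean intensity gave -0.85 and -0.87. AIMP1, a scaffold protein of the complex, fell by 0.65 (adjusted p = 0.000615).

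FARSA and FARSB, the subunits of the cytosolic phenylalanine enzyme, fell by 0.91 and 1.03 on the log2 scale. FARSB read 10.43 in E10 and 10.51 in E14 without tet, against 11.52 and 11.49 with tet, and 11.01 and 10.94 in P2 and U937T without tet, against 11.41 and 11.41 with tet. Of the enzymes outside the complex, GARS1 (glycine) fell by 0.83, CARS1 (cysteine) by 0.79, YARS1 (tyrosine) by 0.77 and AARS1 (alanine) by 0.66. SARS1 (serine), TARS1 (threonine) and NARS1 (asparagine) fell by 0.58, 0.53 and 0.52. The smallest cytosolic change was that of HARS1 (histidine), which fell by 0.30 (SE 0.09, adjusted p = 0.02), with 10.31 and 10.30 in E10 and E14 without tet, against 10.62 and 10.59 with tet.

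The mitochondrial enzymes varied more. MARS2 (methionine), NARS2 (asparagine) and EARS2 (glutamate) changed as much as the leading cytosolic genes, while 4 genes were not called. NARS2 read 8.48 in E10 and 8.45 in E14 without tet, against 9.90 and 9.87 with tet, and 9.12 and 9.20 in P2 and U937T without tet, against 9.74 and 9.79 with tet. It fell by 1.42 on the log2 scale (SE 0.12, adjusted p = 5.57e-07). EARS2 read 7.12 and 7.18 in the clones without tet, against 8.43 and 8.50 with tet, and 7.93 and 7.90 in the control lines without tet, against 8.44 and 8.35 with tet. It fell by 1.31 (SE 0.09, adjusted p = 8.19e-08). In NARS2 and EARS2 alike the clones without tet lay lowest of the arrays taken at 48 h and the control lines without tet came next. MARS2 read 6.81 and 6.47 in the clones without tet, against 8.14 and 8.20 with tet, and fell by 1.53 (SE 0.26, adjusted p = 0.000342). Its control values differed between lines, with 7.24 in P2 and 7.72 in U937T without tet, against 8.09 and 7.91 with tet.

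YARS2 (tyrosine), VARS2 (valine), CARS2 (cysteine) and LARS2 (leucine) fell by 0.76, 0.68, 0.64 and 0.61 on the log2 scale, and PARS2 (proline), FARS2 (phenylalanine), SARS2 (serine) and WARS2 (tryptophan) fell by 0.57, 0.50, 0.49 and 0.42. AARS2 (alanine) and IARS2 (isoleucine) had changes of -0.28 and -0.23 that missed the threshold (adjusted p = 0.175 and 0.0688). HARS2 (histidine) read 9.62 and 9.63 without tet, against 9.70 and 9.55 with tet, in E10 and E14. Its log2 change was -0.00 (SE 0.12, adjusted p = 0.988), and the clones lay on either side of 0. RARS2 (arginine) was the only one of the 32 whose mean value was higher without tet, with 9.48 and 9.40 in E10 and E14 without tet, against 9.28 and 9.12 with tet, and it did not pass the test (log2 change 0.24, SE 0.11, adjusted p = 0.143).

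HARS1 and HARS2 lie head to head on chromosome 5. Their annotated starts are separated by the following 84 bases, shown because the neighbouring genes gave different calls (HARS1 called lower, HARS2 not called; the difference between them was not tested).
HARS1 and HARS2 (chr5:140691371-140691454, plus strand): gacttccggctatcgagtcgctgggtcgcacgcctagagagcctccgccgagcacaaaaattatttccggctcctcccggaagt

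Setting the enzymes for the same amino acid side by side, 11 amino acids had a measured cytosolic and a measured mitochondrial enzyme of their own. The cytosolic gene had the lower log2 change in 9 of these in both EVI1 clones at 48 h, and in 5 of these in both control lines. The widest gap was for arginine, with -0.78 for RARS1 and 0.24 for RARS2, followed by isoleucine (IARS1 -1.15, IARS2 -0.23). The mean order was reversed for asparagine, with -0.52 for NARS1 and -1.42 for NARS2. For tyrosine the values were nearly equal (YARS1 -0.77, YARS2 -0.76), and E10 and E14 differed in their order. The difference between compartments was described and not tested.

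**Figure D2:**
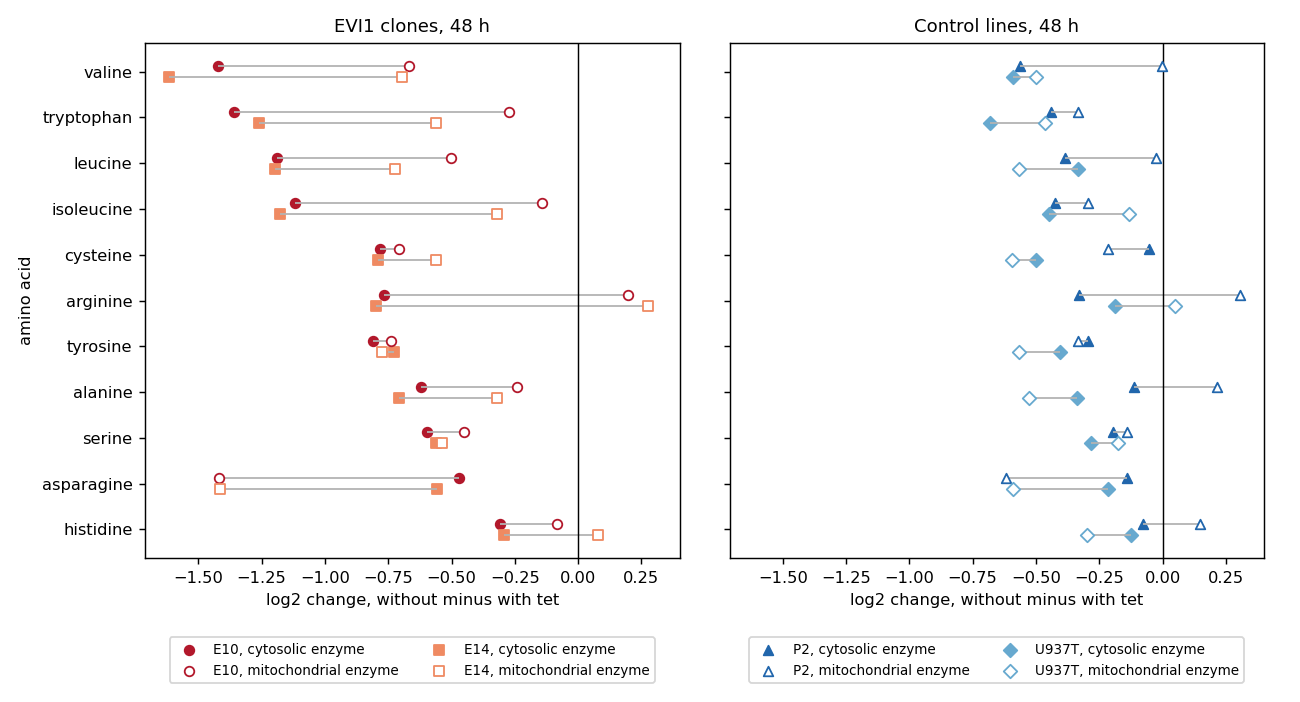
Log2 change at 48 h, without minus with tet, of the cytosolic (filled) and mitochondrial (open) enzyme for 11 amino acids, in E10 and E14 (left) and in P2 and U937T (right), with a grey line joining the 2 enzymes in a line. The filled points lie left of the open ones in both clones for 9 amino acids, and asparagine shows the opposite order in all 4 lines.

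Synthetases fall into catalytic classes I and II, which have unrelated folds of the active site. This grouping was chosen after the values were seen and has no test. The 7 cytosolic class I genes had a median log2 change of -1.15 in the EVI1 clones at 48 h, with values between -0.77 and -1.52. The 9 class II genes had a median of -0.58, with values between -0.30 and -1.03. They include FARSA and FARSB, the subunits of the phenylalanine enzyme, and FARSB had the largest fall. EPRS1, which joins an enzyme of each class in 1 chain, lay between these medians at -0.84. For the mitochondrial genes the medians were -0.64 for 9 class I and -0.50 for 6 class II enzymes.

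**Figure D3:**
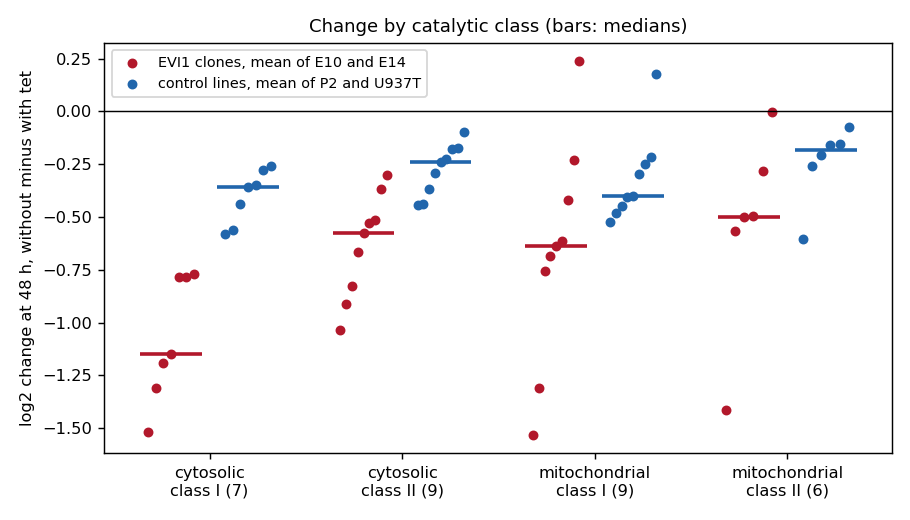
Log2 change at 48 h, without minus with tet, by compartment and catalytic class, each point 1 gene (EVI1 clones left, control lines right in each group) and each bar a median; EPRS1 is left out because it belongs to both classes. The cytosolic class I median of the EVI1 clones is -1.15, against -0.58 for class II.

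The changes developed between 12 and 48 h. At 6 h no synthetase was called in either direction (0% of all genes were called lower, and none of the 32 had an unadjusted p under 0.05), and at 12 h again none was called (0.0112% of all genes lower), with 1 mitochondrial gene lower at an unadjusted p under 0.05. At 12 h, 678 of all 17860 genes were lower at that unadjusted threshold. At 24 h, 6 of 17 cytosolic and 7 of 15 mitochondrial genes were called lower, beside 9.16% of all genes, with medians of -0.27 and -0.33. All 17 cytosolic genes had a value below 0 in each clone at 24 h, as did 15 mitochondrial genes in E10 and 13 in E14. The called cytosolic genes were VARS1 (-0.67), FARSA (-0.60), LARS1 (-0.57), FARSB (-0.53), IARS1 (-0.48) and GARS1 (-0.34). With the most variable probe set of each gene, 3 cytosolic genes were called lower, beside 1243 of 17860 genes. VARS1, LARS1 and FARSB were not among them. The smallest change under any alternative was -0.11 for VARS1 and -0.04 for FARSB. The called mitochondrial genes were MARS2 (-1.17), NARS2 (-0.75), EARS2 (-0.64), CARS2 (-0.48), YARS2 (-0.44), PARS2 (-0.44) and WARS2 (-0.33). Without the E14 arrays at 12 and 24 h the medians at 24 h, then from E10 alone, were -0.28 and -0.37. Fewer synthetases and fewer of all genes were then called lower. The 3′ to 5′ difference of the control probe sets was 1.40 and 1.52 in E14 without and with tet at 24 h, against 0.19 to 1.06 on the other arrays. With this difference added to the model, 8 cytosolic and 8 mitochondrial genes were called lower at 24 h, beside 1895 of 17860 genes.

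MARS2, the mitochondrial methionine enzyme, had the largest change of the family at 24 h. It read 7.28 in E10 and 6.58 in E14 without tet at 24 h, against 8.32 and 7.88 with tet. It was the only synthetase at least 2-fold lower at both 24 and 48 h in both clones, a criterion that 0.644% of all genes met. At 48 h alone, IARS1, LARS1, VARS1, WARS1, EARS2, MARS2 and NARS2 were at least 2-fold lower in both clones, as were 2.44% of all genes. With tet, MARS2 read 9.25, 8.37, 8.32 and 8.14 in E10 and 8.60, 8.05, 7.88 and 8.20 in E14 at 6, 12, 24 and 48 h, so the level with tet was itself higher at 6 h than later. Over all members, none was called between 48 h and 6 h with tet, where 7.17% of all genes were called in either direction (limma). At an unadjusted p under 0.05, 5 cytosolic genes were higher and 3 mitochondrial genes lower at 48 h. Of all 17860 genes, 1629 were higher and 2344 lower at that threshold.

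**Figure D4:**
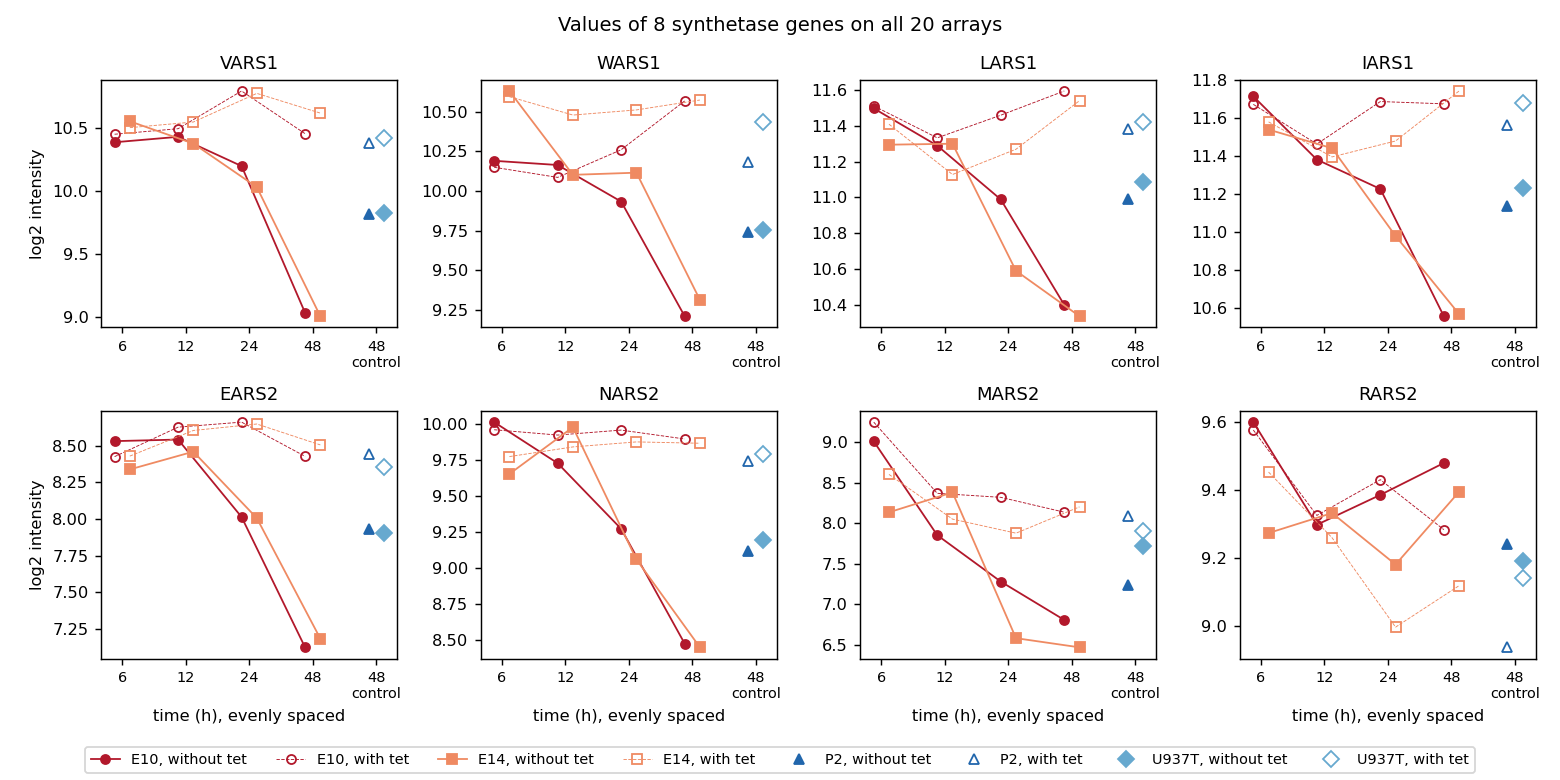
Log2 intensity of 8 synthetase genes on all 20 arrays, with E10 and E14 at 6, 12, 24 and 48 h and P2 and U937T at 48 h (right of each panel); filled symbols are cultures without tet and open symbols cultures with tet. At 24 and 48 h the filled points of VARS1, WARS1, LARS1, IARS1, EARS2, NARS2 and MARS2 lie below the open ones in both clones, while those of RARS2 lie above the open ones at 48 h.

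The response then grew for part of the family. Between 24 and 48 h the log2 change fell further, with a test of the difference itself, in WARS1 (by 0.95), VARS1 (by 0.85), IARS1 (by 0.67), LARS1 (by 0.62) and FARSB (by 0.51) among 17 cytosolic genes, and in EARS2 (by 0.67) and NARS2 (by 0.67) among 15 mitochondrial genes, beside 1.63% of all genes. WARS1 had not been called at 24 h, when it read 9.93 and 10.12 in E10 and E14 without tet, against 10.26 and 10.51 with tet (log2 change -0.36, adjusted p = 0.0768). RARS1 and CARS1 differed by -0.70 each between the times without passing the test (adjusted p = 0.0647 and 0.0742). MARS2 differed by only -0.36 (SE 0.36, adjusted p = 0.67). None of these 7 calls was made without the E14 arrays at 12 and 24 h, or when E10 or E14 was left out altogether.

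**Figure D5:**
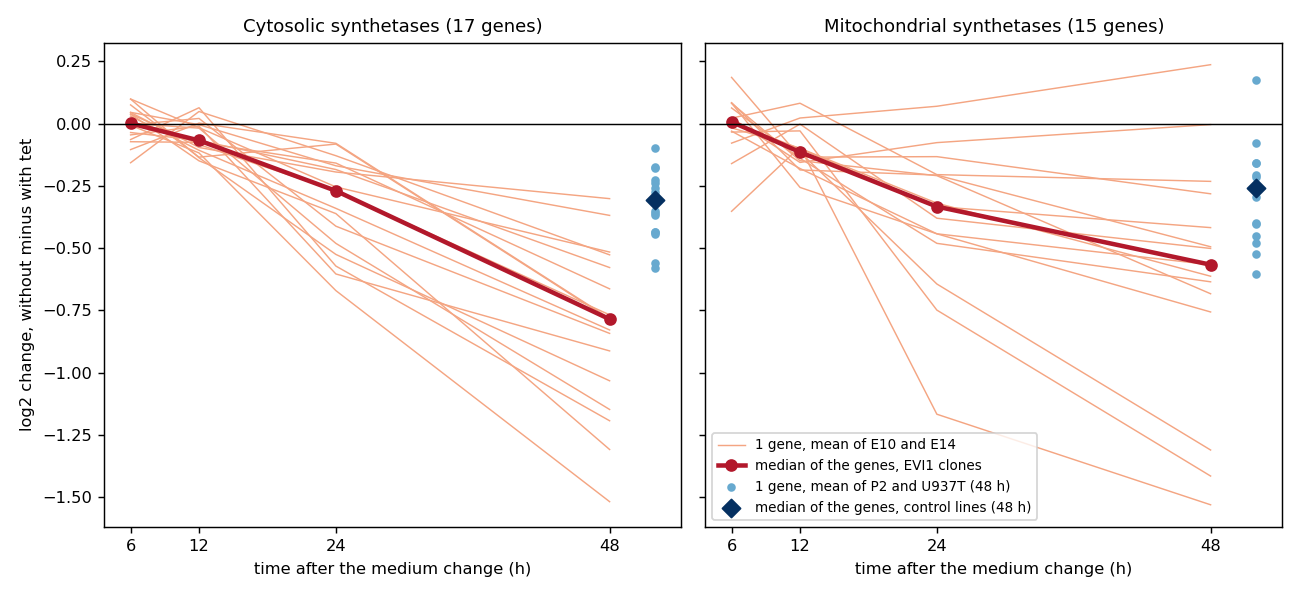
Log2 change, without minus with tet, of the cytosolic (left) and mitochondrial (right) synthetase genes at 6, 12, 24 and 48 h, with a thin line for each gene (mean of E10 and E14), a thick line for their median, and points to the right of 48 h for the control lines at 48 h. The cytosolic median reaches -0.79 at 48 h in the EVI1 clones, against -0.31 in the control lines, and the mitochondrial median -0.57, against -0.26.

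Some of these genes were also lower after tet withdrawal in the lines without inducible EVI1. In P2 and U937T at 48 h, 7 of 17 cytosolic and 4 of 15 mitochondrial synthetases were called lower and none higher, beside 5.3% of all genes called lower, with medians of -0.31 and -0.26. The called genes were VARS1 (-0.58), WARS1 (-0.56), FARSB (-0.44), IARS1 (-0.44), GARS1 (-0.37), LARS1 (-0.36) and YARS1 (-0.35) in the cytosol and NARS2 (-0.61), EARS2 (-0.48), YARS2 (-0.45) and WARS2 (-0.40) in mitochondria. All 17 cytosolic and 12 mitochondrial genes were lower without tet in 4 of 4 lines, against 21.8% of all genes. Over the 32 genes P2 and U937T were less alike than the clones, with a Pearson correlation of 0.208, and their mitochondrial medians were -0.21 and -0.45. CARS1, for example, changed by -0.05 in P2 and -0.50 in U937T, and VARS2 by 0.00 and -0.50. Without P2, and likewise without U937T, fewer synthetases and fewer of all genes were called lower in the control line that remained.

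The EVI1-specific response at 48 h is the response of the EVI1 clones minus that of the control lines, and it was negative for all 17 cytosolic and 13 of 15 mitochondrial genes. Of the cytosolic genes 5 were called lower, beside 3.03% of all genes: VARS1 (-0.94, SE 0.14, adjusted p = 0.00106), LARS1 (-0.84, SE 0.14, adjusted p = 0.0034), WARS1 (-0.75, SE 0.18, adjusted p = 0.029), IARS1 (-0.71, SE 0.14, adjusted p = 0.00814) and FARSB (-0.60, SE 0.13, adjusted p = 0.0125). A dimmer FARSB probe set gave 0.40 (adjusted p = 0.905), and the main FARSB probe set had an adjusted p of 0.107 with the arrays at 48 h only. The WARS1 call was lost without the line block (adjusted p = 0.0995), with the arrays at 48 h only (0.073) and with its most variable probe set (0.159). With their most variable probe sets VARS1 and LARS1 were not called either, at -0.73 (adjusted p = 0.432) and -0.79 (adjusted p = 0.378). IARS1 was not called with the arrays at 48 h only (adjusted p = 0.0648). Of the mitochondrial genes 2 were called lower, EARS2 (-0.83, SE 0.13, adjusted p = 0.00148) and NARS2 (-0.81, SE 0.17, adjusted p = 0.011). MARS2 had the lowest value, -1.01, but also the largest SE, 0.36, and was not called (adjusted p = 0.144). KARS1 and GARS1, whose products serve both compartments, had values of -0.20 and -0.46 that did not pass the test. The 4 called among the 7 cytosolic class I genes are those for valine, leucine, tryptophan and isoleucine. The 1 called among the 9 class II genes is FARSB, a subunit of the phenylalanine enzyme. By line, both clones lay below both control lines in 17 cytosolic and 8 mitochondrial genes, against 22.9% of all genes.

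The EVI1-specific median was -0.47 for the cytosolic and -0.31 for the mitochondrial genes, beside 0.00 over all genes. The mitochondrial median was -0.16 without P2 and -0.42 without U937T. WARS2, with -0.42 in the EVI1 clones and -0.40 in the control lines, had an EVI1-specific value of -0.02 (SE 0.13), whereas WARS1 had -0.75. The synthetase calls of this comparison were all lost without E10 or without E14, and some were lost without P2 or without U937T. Fewer of all genes were called lower in these fits too. The cytosolic median was -0.48 without E10, -0.46 without E14, -0.42 without P2 and -0.50 without U937T.

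The genes that carried the response element letters shown above spanned much of the range of changes. Of the 6 measured cytosolic genes with the match, IARS1 fell by 1.15, GARS1 by 0.83, CARS1 by 0.79, AARS1 by 0.66, TARS1 by 0.53 and NARS1 by 0.52 on the log2 scale, and 1 of them, IARS1, had a called EVI1-specific value. The measured cytosolic genes searched without a match fell by between 0.30 (HARS1) and 1.31 (WARS1). LARS1, VARS1 and YARS1 had no matched promoter and were not searched, though LARS1 and VARS1 had called EVI1-specific values. A relation between the letters and the changes was not tested. ATF4 itself fell by 0.86 in the EVI1 clones (adjusted p = 6.25e-06), against a control-line change of -0.36, and its EVI1-specific change was -0.50 (adjusted p = 0.0417). Of 16 listed genes made up of ATF4 and its targets outside the family, 12 were called lower and 2 higher in the EVI1 clones at 48 h, 5 lower in the control lines, and 7 lower in the EVI1-specific response, with a median EVI1-specific change of -0.50. Of all genes 14.7% were called lower and 16% higher in the EVI1 clones, 5.3% lower in the control lines and 3.03% lower in the EVI1-specific response. The lower ones included PSAT1 of serine synthesis (EVI1-specific -1.38), SLC7A5 and SLC3A2, the subunits of a transporter for large neutral amino acids, which fell by 1.56 and 1.34 in the EVI1 clones, and ASNS, asparagine synthetase (EVI1-specific -0.77). ATF3 and CEBPB, which are transcription factors, rose by 0.80 and 0.43 in the EVI1 clones. Of 5 genes of the GCN2 pathway, GCN1 and EIF2S1 fell by 0.59 and 0.66, and PPP1R15A, a phosphatase subunit, rose by 0.88 in the EVI1 clones. PPP1R15A also rose by 0.45 in the control lines, and none of the 5 had a called EVI1-specific change.

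Other genes that handle tRNA were compared by counts. Of 21 measured genes for tRNA modification and maturation, 13 were called lower and 1 higher in the EVI1 clones at 48 h (14.7% and 16% of all genes), 7 were called lower in the control lines (5.3%), and 4 were called lower in the EVI1-specific response (3.03%). These 4 were the pseudouridine synthases PUS7 (-1.31) and PUS1 (-1.31), the RNase P subunit POP1 (-0.84) and the tRNA exportin XPOT (-0.76). Among 3 measured deacylases and editing factors, DTD2 fell by 1.32 and DTD1 by 0.49 in the EVI1 clones, and DTD2 also fell by 0.48 in the control lines and had an EVI1-specific change of -0.83 (adjusted p = 0.0034). Of 6 genes for tRNA-dependent amidation, formylation and selenocysteine, QRSL1 and GATB, subunits of the mitochondrial glutamyl-tRNA amidotransferase, fell by 0.91 and 0.62 in the EVI1 clones and by 0.60 and 0.36 in the control lines, and neither EVI1-specific change was called. GATC, the third subunit, named after its value was seen, had a change of -0.03 in the EVI1 clones (adjusted p = 0.899). SEPSECS, which forms selenocysteinyl-tRNA, rose by 0.73 in the EVI1 clones. All 3 measured mitochondrial elongation factors, TUFM, TSFM and GFM1, were called lower in the EVI1 clones (-0.94, -0.72 and -0.72) and in the control lines (-0.43, -0.38 and -0.33), and of these TUFM had a called EVI1-specific change (-0.51, adjusted p = 0.0254). None of 3 measured cytosolic elongation factors was called, but EEF1A1 and EEF2 had mean log2 intensities of 14.4 and 13.8, close to the highest value on any array, 14.49, where a change may go unmeasured. The third, EEF1D, had a mean of 12.7 and changed by -0.09 in the EVI1 clones (limma, adjusted p = 0.619).

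Markers of myeloid cells were present, with 8 of 9 listed genes measured. LYZ, CEBPA and ITGB2 had mean log2 intensities of 11.9, 11.6 and 11.5 over the 20 arrays, and MPO and FCGR1A had 5.0 and 3.5. ITGB2, a leukocyte integrin, rose by 1.61 in the EVI1 clones and by 0.96 in the control lines without tet, and CSF1R and CD4 rose by 0.96 and 0.66 in the EVI1 clones. Of all genes 16% were called higher in the EVI1 clones and 5.41% in the control lines. The other 5 were not called in the EVI1 clones (SPI1 0.26, FCGR1A 0.08, CEBPA -0.01, LYZ -0.23 and MPO -0.24), and the median change of the 8 was 0.17. The 8 myeloid markers averaged 9.06 to 9.12 in the EVI1 clones without tet, against 8.61 to 8.80 with tet, and 8.80 to 8.87 in the control lines without tet, against 8.56 to 8.66 with tet. ITGB2, CSF1R and CD4 were thus higher without than with tet at 48 h, while most synthetases were lower. The part of these markers in the result was not tested. Their EVI1-specific changes were 0.65 for ITGB2 (limma, adjusted p = 0.0407), 0.35 for CSF1R (adjusted p = 0.67) and 0.48 for CD4 (adjusted p = 0.0919). With tet, CSF1R fell by 1.86 between 6 and 48 h in the EVI1 clones (limma, adjusted p = 0.000724). Of 10 markers of other cell types 7 were measured, their average lay between 5.24 and 5.32 on the 4 arrays of the EVI1 clones at 48 h, and 1 of them, CD3E, was called, with a rise of 1.17 in the EVI1 clones.

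Of the measured members 18 had more than 1 probe set of their own, which gave 35 others. Of these, 31 were lower on average at 48 h in E10 and E14, including 17 of the 18 with a mean log2 intensity of at least 7. The 3 LARS1 probe sets with a mean over 10 agreed closely, with mean changes of -1.19, -1.23 and -1.19, and the 2 of WARS1 gave -1.31 and -1.30. For FARSB the dimmer probe sets disagreed on the control lines. The one with a mean of 6.25 had changes of -1.29 and -1.60 in E10 and E14, against -1.46 and -2.21 in P2 and U937T, and with it the EVI1-specific change of FARSB was 0.40. The second RARS2 probe set, with a mean of 8.34, changed by 0.05 on average in the clones.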

How the data were processed

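U937T_EVI1-HA clones E10 and E14 and the control lines P2 and U937T were profiled on 20 Affymetrix HG-U133 Plus 2.0 arrays, 1 for each line, time and condition. The deposited values are log2 intensities, which the authors had background corrected, quantile normalized and summarized by Robust Multi-array Analysis, and they were used as they are, since the array medians lay between 5.25 and 5.35. Probe sets with 1 gene symbol (41097 of 54675) were kept if their mean log2 value reached 3 in every line at 48 h and in both clones at 24 h, and 1 per gene was used, that with the highest mean, for 17860 genes. Groups came from the sample titles.

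The model (limma 3.58.1, R 4.3.3) had 10 groups with the line as a block, 8 residual and 5.74 prior degrees of freedom, and p-values adjusted over all genes by Benjamini-Hochberg. A call is an adjusted p under 0.05, two-sided. The line is named in the labels and pairs the cultures with and without tet. The differences between E10 and E14 had a median correlation of 0.11 across genes over 28 pairs of groups, and those between P2 and U937T one of -0.21. E10 and E14 are independent clones treated as replicates, as are P2 and U937T. The p-values rest on differences between the lines of a pair beyond a constant one, pooled over all 10 groups. They do not rest on replicate cultures of a line. The fitting was tested on simulated data. All measured members are described, with values for up to 10 called members in each direction, both enzymes of an amino acid, KARS1, GARS1 and WARS1, and, of 10 other lists, counts and up to 4 called genes. The members, the lists and the promoter motifs were chosen with earlier results of these data known. The alternatives covered the intensity filter, the probe set, centring, the block, the arrays fitted, RNA integrity, each line left out and a fold minimum. Promoter windows came from RefSeq (GRCh38.p14).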

Additional observations from a re-analysis of the deposited data

Results flagged for a closer look

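In 7 synthetase genes the response of the EVI1 clones at 48 h differed from that of the control lines by a test of the difference itself (limma). The differences in log2 change were -0.94 for VARS1, -0.84 for LARS1, -0.83 for EARS2, -0.81 for NARS2, -0.75 for WARS1, -0.71 for IARS1 and -0.6 for FARSB. With another probe set the FARSB difference was 0.398 (adjusted p = 0.905), and the main FARSB probe set had an adjusted p of 0.107 with the arrays at 48 h only. The adjusted p of WARS1 was 0.0995 without the line block, 0.073 with the arrays at 48 h only and 0.159 with its most variable probe set. With their most variable probe sets the adjusted p was 0.432 for VARS1 and 0.378 for LARS1. For IARS1 it was 0.0648 with the arrays at 48 h only. The same 7 genes had a response at 48 h that differed from the one at 24 h in the EVI1 clones, by -0.95 for WARS1, -0.85 for VARS1, -0.67 for IARS1, -0.67 for EARS2, -0.67 for NARS2, -0.62 for LARS1 and -0.51 for FARSB. The 2 tests share the arrays of the clones at 48 h. No group had more than 2 arrays, so single arrays could not be tested as standing apart from their group.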

How the results depend on the processing

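The counts of called genes depended on how many arrays gave the estimate of the spread. Leaving out 1 of the 4 lines gave between 10 and 17 cytosolic and between 4 and 11 mitochondrial genes called lower in the EVI1 clones at 48 h, between 0 and 5 and between 0 and 8 at 24 h, between 0 and 1 cytosolic and 1 mitochondrial in the control lines, between 0 and 3 and between 0 and 2 for the EVI1-specific response, and between 0 and 5 and between 0 and 2 for the change between 24 and 48 h. Without E10 or E14 a single residual degree of freedom remains, and fewer of all genes were called lower in each comparison too. With 1 line left in a pair that line is assumed to vary like the others. Without the E14 arrays at 12 and 24 h the cytosolic counts were 1 at 24 h, 4 in the control lines, 3 EVI1-specific and 0 between the times, and the mitochondrial ones 2 at 24 h and 0 between the times.

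The probe set with the largest standard deviation gave cytosolic counts of 3 at 24 h, 2 in the control lines, 1 EVI1-specific and 1 between the times, and mitochondrial counts of 2 in the control lines and 1 between the times, and it turned the EVI1-specific change of FARSB to 0.398 (adjusted p = 0.905). With a minimum of 1.5-fold the cytosolic counts were 2 at 24 h and 0 in the control lines, and the mitochondrial ones 3 at 24 h, 7 at 48 h and 1 in the control lines. A fit of the arrays at 48 h alone called 2 cytosolic and 2 mitochondrial genes in the control lines and 2 cytosolic genes in the EVI1-specific response. Intensity trend with robust estimation called 8 cytosolic genes as EVI1-specific and 10 between the times, adding the 3′ to 5′ difference to the model 8 and 8, and an intensity minimum of 5 called 9 between the times. Centred arrays, and likewise the fit with no replicate block, called 3 cytosolic and 1 mitochondrial gene between the times. The other counts stayed within 1.5 times. Of the 28 genes called at 48 h in the EVI1 clones, 12 were called under every alternative but the fold minimum: CARS1, FARSA, GARS1, IARS1, LARS1, RARS1, VARS1, WARS1, EARS2, MARS2, NARS2 and YARS2. No call of the other comparisons was made under all of them.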
